A study of Mus musculus with 6 samples.

Results

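Lysosomes are acidic organelles in which macrophages break down engulfed and recycled material. Their soluble hydrolases cut sugars, sulfates, lipids and proteins, their membrane proteins shield the limiting membrane and carry products and ions across it, and NPC1 with NPC2 moves cholesterol out. TFEB, TFE3 and MITF, of the MiT family of transcription factors, bind short E-box sequences in the promoters of many lysosomal genes and can raise them together. The 36 genes described here are non-cathepsin lysosomal enzymes and cofactors, membrane proteins, sterol exporters and those 3 factors. They were picked by symbol, and each matched 1 of the 54532 genes in the deposited FPKM table (fragments scaled to gene length and to library size).

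RNA-seq was performed on mouse bone marrow-derived macrophages, 3 libraries labelled NSUN2-KO and 3 labelled NC, all given LPS and IFN-γ to reach the inflammatory M1 state. NSUN2 is an RNA 5-methylcytosine methyltransferase. What NC stands for, how Nsun2 was inactivated, and the strain, sex and age of the mice were not given in the sources used here, nor was it stated which animal gave which library. P-values therefore measure the spread between these libraries only. Libraries held 35019033 to 45636131 reads, recovered from the FPKM values. These are bulk samples, in which fewer cells of a type and less RNA per cell cannot be told apart.

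Nsun2 mRNA was reduced rather than absent in the knockout. It measured 1.88, 2.04 and 1.84 FPKM in NC against 0.967, 1.36 and 0.863 FPKM in NSUN2-KO (limma, adjusted p = 0.0228). The groups also differed in sex-linked genes: Ddx3y, Eif2s3y, Uty and Kdm5d, on the Y chromosome, had reads in every NC library and 0 reads in every NSUN2-KO library, and Xist was at 14.0 to 15.5 FPKM in NC against 29.4 to 31.8 FPKM in NSUN2-KO. The 8 macrophage markers, Cd68 among them, were present in all libraries, with summed levels of 3929 to 4018 FPKM in NC against 3368 to 3409 FPKM in NSUN2-KO. They went both ways: Lyz2 (lysozyme), Cd68 and Fcgr1 fell, Cd14 rose, and Adgre1, Csf1r, Itgam and Mertk were not called. Lyz2 made most of the difference in the sum, with means of 1736 FPKM in NC against 1163 FPKM in NSUN2-KO (limma, adjusted p = 0.000282), whereas Cd14 had means of 206 FPKM and 251 FPKM (adjusted p = 0.00113). Neutrophil markers summed to 98.9 to 106.8 FPKM in NC against 79.8 to 83.7 FPKM in NSUN2-KO (of 10 markers 5 were tested, 3 fell and 0 rose, and Elane was at 0 reads throughout). Osteoclast markers, among them the lysosomal enzymes Acp5 and Ctsk, summed to 14.9 to 15.7 FPKM in NC against 13.4 to 14.7 FPKM in NSUN2-KO, with 0 called of the 3 tested out of 8. Dendritic cell markers summed to 6.00 to 7.34 FPKM and 9.18 to 10.2 FPKM. Of 7, 3 were tested and 1 rose, the chemokine receptor gene Ccr7, from 2.98 ± 0.649 to 5.24 ± 0.319 FPKM (SD of 3 libraries, limma, adjusted p = 0.0144). T and NK cell, B cell, fibroblast, mast cell and erythroid lists each stayed below 2 FPKM in sum in every library. Fibroblast markers were lower in NSUN2-KO, at 1.52 to 1.72 FPKM in NC against 0.754 to 1.04 FPKM. Mast cell markers were slightly higher, at 1.22 to 1.37 FPKM in NC against 1.38 to 1.57 FPKM. The other lists overlapped between groups. The sex-linked difference follows the group labels in every library, so a difference of genotype and one of sex cannot be told apart here. The marker differences also accompany every comparison given here, and their part in it was not tested.

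Promoter sequences are shown first, because the MiT factors are among the genes and their binding motif is a short word that can be looked up. RefSeq promoters (GRCm38.p6) were found for 33 of the 36 genes, and the 250 bases before each start were searched for the E-box hexamer CACGTG and for the longer TCACGTGA. Each word is its own reverse complement, so both strands are covered, and every TCACGTGA contains the hexamer. Lamp1 had the most copies, 4 of them within 86 bases of its start, whereas Gla, Cln3 and Mcoln1 each had 2. Both Cln3 copies lie in a promoter inside the gene (chr7:126583187-126583486). The Cln3 promoter at the 5′ end of the gene (chr7:126585768-126586067) had 0. The stretch of Lamp1 (chr8:13159075-13159160, plus strand) and, for the other genes with a hexamer, the copy nearest the start with 8 bases on each side are printed 5′ to 3′, with hexamers in capitals:
Lamp1: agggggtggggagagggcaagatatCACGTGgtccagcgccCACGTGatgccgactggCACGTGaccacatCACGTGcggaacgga
Gla (chrX:134601186-134601207, minus strand): atctcggtCACGTGagcaactc
Cln3 (chr7:126583344-126583365, minus strand): ggtactgtCACGTGacccccaa
Mcoln1 (chr8:3500466-3500487, plus strand): gccccgctCACGTGaccgcggc
Naglu (chr11:101070013-101070034, plus strand): cttcaggtCACGTGgcccgagg
Glb1 (chr9:114401022-114401043, plus strand): ttctgagtCACGTGgcctacag
Gaa (chr11:119267815-119267836, plus strand): tgtgcgatCACGTGtttgactc
Sgsh (chr11:119355526-119355547, minus strand): ctgccgtgCACGTGaccgtggg
Arsa (chr15:89477427-89477448, minus strand): ctcagtgtCACGTGttgtctgc

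A gene was counted if any of its promoters had the word. The hexamer was thus present in 9 of 33 genes (27.3%), against 11 of 53 other lysosomal genes (20.8%), 10.4% of 6997 tested genes with a promoter and 6.86% of all 27025 genes in the promoter table. TCACGTGA was present in 3 of the 33 (9.09%), namely Gla, Cln3 and Mcoln1, against 9 of 53 other lysosomal genes (17.0%), 2.12% of tested genes and 0.907% of all genes. A match describes the letters only, and says nothing of whether a factor was bound.

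Most of the 36 lysosomal genes were slightly lower in NSUN2-KO. Mean FPKM was lower in 33 genes and higher in 3 (Manba, Ids and Mitf), and the change of any gene was at most 21.3% of the NC mean. In 23 genes all 3 NSUN2-KO values lay below all 3 NC values, and in 0 genes did they lie above. Of the 35 genes whose mean reached 1 FPKM, which were tested with limma on log2(FPKM + 1), 9 fell and 0 rose at an adjusted p below 0.05. The 9 that fell were the membrane proteins Cd63 and Cd68, the glycosidases Man2b1, Naglu and Idua, the peptidase Tpp1, the cofactor precursor Psap, the lipase Lipa and the cholesterol carrier Npc2.

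Over all 9443 tested genes, 8.49% were called, 4.30% lower and 4.19% higher. Groups were apart in 31.1%, with NSUN2-KO below in 16.7% and above in 14.4%, and the mean was lower in 51.8%, so 9 of 35 (25.7%) and 23 of 35 (65.7%) were both above the background. The median log2 fold change was -0.12 over the 35 genes and -0.01 over all tested genes. These genes were also more abundant than most, with a median of 24.7 FPKM against 6.38 FPKM, and their median standard error was smaller (0.04 against 0.06). Among genes whose mean reached 5 FPKM, tested on their own, 10 of 32 fell and 0 rose, against a background of 8.32% lower and 7.63% higher. Limma voom on the recovered reads called 12 of 35 lower and 0 higher, against 7.05% and 7.48% of all tested genes. The count of genes that fell was 3 of 35 when NC replicate 2 was left out, where 145 of all 9440 tested genes fell. Without NC replicate 3 or NSUN2-KO replicate 1 the count was 4, where 124 of 9444 and 123 of 9433 tested genes fell. It was 2 when lowly expressed genes were kept in, where the background was 0.483% lower and 0.602% higher. In that fit, Cd63 and Tpp1 were the 2 that fell. With no mean-variance trend in the fit, 6 fell, against 254 of all 9443 tested genes, and Cd68, Lipa and Npc2 were no longer called. An exact permutation test of any single gene cannot give a p below 0.1 with 3 against 3 libraries, and p-values quoted here are from limma with Benjamini-Hochberg adjustment over all tested genes.

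**Figure D1:**
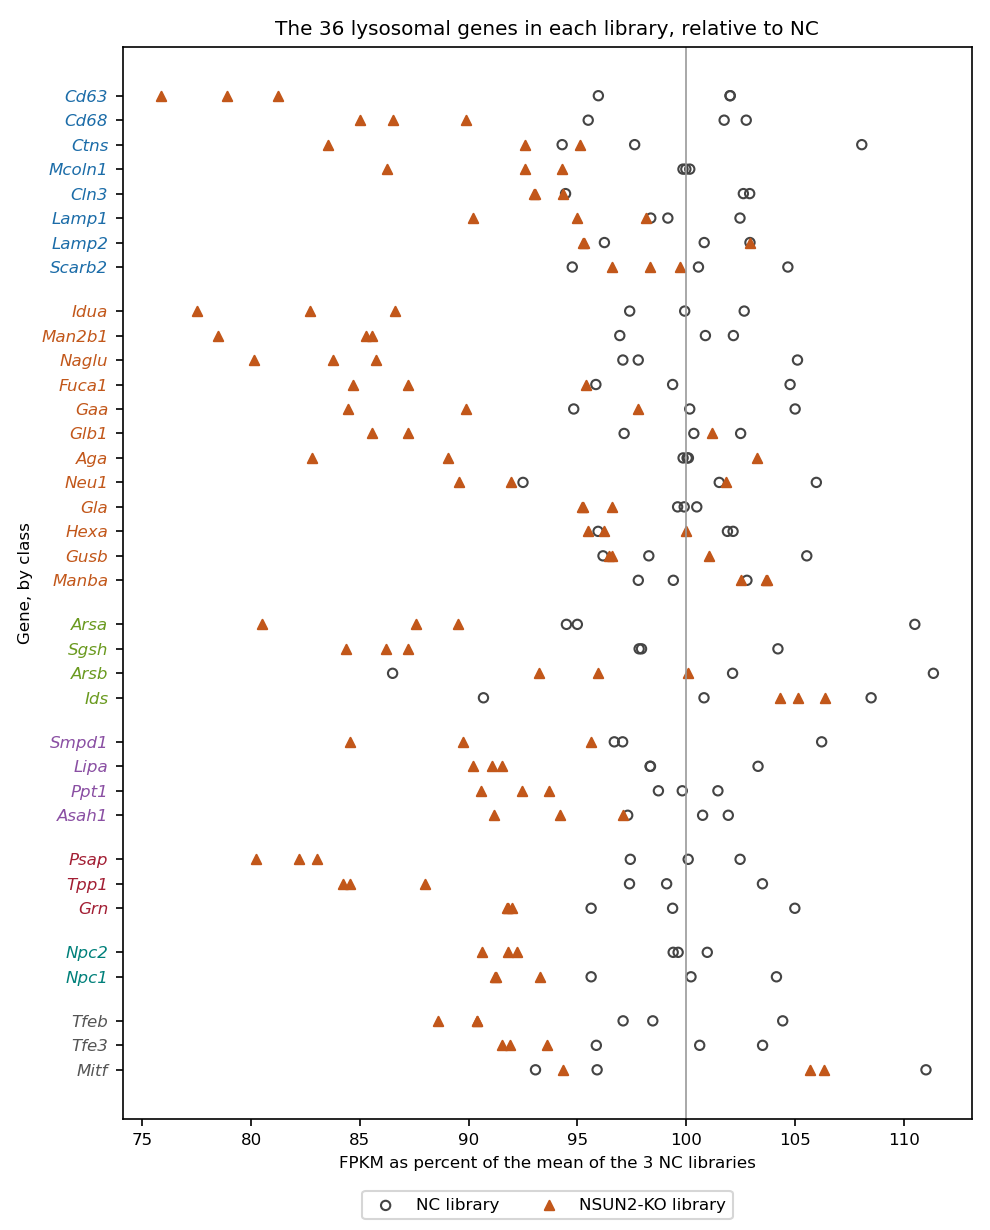
FPKM of each of the 36 lysosomal genes in each library, as a percent of the mean of the 3 NC libraries (horizontal axis), by class (vertical axis, label colours). Open circles are NC libraries and triangles NSUN2-KO libraries. The triangles of Cd63, Idua, Man2b1, Naglu, Psap and Tpp1 lie left of all circles, whereas those of Ids, Manba and Mitf do not.

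Among the 8 membrane proteins, 2 fell, against 4.30% of all tested genes. All 8 had a negative log2 fold change (median -0.10), against 51.8% of all tested genes. Cd63, a tetraspanin of late endosomes and lysosomes (ENSMUSG00000025351, GRCm38 chromosome 10, 128900989 to 128912822, plus strand), had the largest fractional decrease of the 36 genes. It measured 32.8, 34.9 and 34.9 FPKM in NC against 26.0, 27.0 and 27.8 FPKM in NSUN2-KO. The groups did not overlap, and Cd63 fell by 0.34 on the log2 scale (SE 0.04, adjusted p = 0.00360). Cd63 was called in all 18 alternative fits.

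Cd68, the heavily glycosylated lysosomal protein used as a macrophage marker (chromosome 11, 69664213 to 69666153, minus strand), measured 436, 469 and 464 FPKM in NC against 388, 395 and 410.2 FPKM in NSUN2-KO. Every NSUN2-KO library was below every NC library, and Cd68 fell by 0.20 (SE 0.04, adjusted p = 0.0216). The call ended without NC replicate 2 or 3 and without NSUN2-KO replicate 1 or 2 (adjusted p from 0.0614 to 0.0913).

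The 2 major membrane glycoproteins of the lysosome differed less. Lamp1 measured 435, 431 and 449 FPKM in NC against 417, 430.4 and 396 FPKM in NSUN2-KO. Its groups did not overlap, but the lowest NC and the highest NSUN2-KO library were almost level, and the test was not passed (log2 fold change -0.08, adjusted p = 0.216). The X-linked Lamp2 overlapped between groups, at 248 to 265 FPKM in NC against 245 to 265 FPKM in NSUN2-KO, with a 95% interval of -0.13 to 0.06 for the log2 fold change. Scarb2, the LIMP-2 receptor that carries glucocerebrosidase to lysosomes, also overlapped, with means of 40.9 ± 2.04 FPKM and 40.1 ± 0.643 FPKM (NC first, SD of 3 libraries).

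Mcoln1, Ctns and Cln3 were far below Lamp1 in FPKM, a length-scaled level, and 0 of the 3 were called. Mcoln1, the TRPML1 calcium channel, was at 5.04 to 5.05 FPKM in NC against 4.35 to 4.76 FPKM in NSUN2-KO, with groups apart (adjusted p = 0.211). Ctns, the cystine exporter, overlapped (6.16 to 7.06 FPKM in NC against 5.46 to 6.22 FPKM in NSUN2-KO). Cln3, the membrane protein lost in juvenile Batten disease, was at 12.7 to 13.8 FPKM and 12.5 to 12.7 FPKM. Cln3 overlaps Apobr on the opposite strand, and the strand setting of the counting was not given in the sources used here, so reads of the shared part are uncertain.

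Glycosidases remove sugars from glycoproteins, glycolipids and glycosaminoglycans, and Aga, which cleaves the link between sugar and asparagine, was placed with them. Of the 12 genes in this class, 3 fell and 0 rose, against 4.30% and 4.19% of all tested genes. The median log2 fold change of the class was -0.12. Without NC replicate 2, 0 fell, against 145 of all 9440 tested genes. Man2b1, the lysosomal alpha-mannosidase (chromosome 8, 85083270 to 85098282, plus strand), measured 27.5, 27.9 and 26.4 FPKM in NC against 23.3, 21.4 and 23.3 FPKM in NSUN2-KO. It fell by 0.26 (SE 0.04, adjusted p = 0.0143), a call that ended without NC replicate 2 (adjusted p = 0.0563). Naglu and Idua, both of which degrade heparan sulfate, were lower by nearly the same fraction.

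Naglu (chromosome 11, 101070012 to 101077672, plus strand) measured 19.1, 20.6 and 19.0 FPKM in NC against 15.7, 16.4 and 16.8 FPKM in NSUN2-KO. It fell by 0.25 (SE 0.05, adjusted p = 0.0172), and the call ended without NC replicate 2 or NSUN2-KO replicate 1 (adjusted p of 0.0549 and 0.0725). Idua (chromosome 5, 108660331 to 108684557, plus strand) measured 10.2, 10.7 and 10.5 FPKM in NC against 9.07, 8.12 and 8.66 FPKM in NSUN2-KO. Idua fell by 0.26 (SE 0.05, adjusted p = 0.0225), and it kept its call in 2 of the 6 fits that left out a library, those without NC replicate 1 and without NSUN2-KO replicate 1. It overlaps Dgkq on the opposite strand, a gene with 34.9% as many reads.

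In Glb1, Aga, Gaa and Fuca1, and also in Gusb, Neu1, Naglu and Man2b1, replicate 3 was the highest of the NSUN2-KO libraries. Glb1, beta-galactosidase, measured 16.8, 17.2 and 16.3 FPKM in NC against 14.4, 14.6 and 17.0 FPKM in NSUN2-KO. Replicate 3 of NSUN2-KO was thus at the NC level, and without it Glb1 was called lower (log2 fold change -0.20, adjusted p = 0.0496), against -0.13 and adjusted p = 0.259 with all libraries. Of the 18 alternative fits, 1 called Glb1, the fit without that library. Glb1 overlaps Tmppe on the same strand, a gene with 16.7% as many reads, so how the shared part was counted is uncertain. Aga, which cleaves the link between sugar and asparagine, showed the same library high, at 5.62, 6.04 and 7.01 FPKM against 6.78 to 6.79 FPKM in NC (adjusted p = 0.370). Gaa, the acid alpha-glucosidase of glycogen breakdown, was at 12.1, 12.9 and 14.0 FPKM against 13.6 to 15.1 FPKM in NC (adjusted p = 0.221). Fuca1, alpha-fucosidase, was at 31.8, 32.8 and 35.8 FPKM against 36.01 to 39.4 FPKM, with groups apart (adjusted p = 0.104, and 0.0496 without that library).

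The remaining glycosidases moved little. Gla, the X-linked alpha-galactosidase A, had groups apart in a narrow range, at 112 to 113 FPKM in NC against 107 to 108 FPKM in NSUN2-KO (adjusted p = 0.185). Hexa, the alpha subunit of beta-hexosaminidase, and Gusb, beta-glucuronidase, overlapped, with 95% intervals of -0.12 to 0.05 and -0.13 to 0.07 for the log2 fold change. Neu1, the sialidase, overlapped too (adjusted p = 0.491). Manba, beta-mannosidase, had the opposite sign, at 5.36 to 5.64 FPKM in NC against 5.62 to 5.69 FPKM in NSUN2-KO (a log2 fold change of 0.04, adjusted p = 0.632).

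The sulfatases, which remove sulfate from glycolipids and glycosaminoglycans, gave 0 calls in 3 tested genes, against 8.49% of all tested genes. Arsa, which acts on sulfatide, had groups apart at 5.88 to 6.88 FPKM in NC against 5.01 to 5.57 FPKM in NSUN2-KO (a log2 fold change of -0.19, adjusted p = 0.138). Sgsh, the heparan N-sulfatase, was also apart, at 3.33 to 3.55 FPKM and 2.88 to 2.97 FPKM (log2 fold change -0.17, adjusted p = 0.105). The X-linked Ids, iduronate 2-sulfatase, was the gene with the largest positive difference of the 36, at 10.2, 8.51 and 9.46 FPKM in NC against 9.79, 9.98 and 9.86 FPKM in NSUN2-KO. The NC values enclosed those of NSUN2-KO (adjusted p = 0.523). Arsb, arylsulfatase B, was the 1 gene below the filter, at 0.634 to 0.817 FPKM in NC against 0.684 to 0.734 FPKM in NSUN2-KO.

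All 4 lipid hydrolases had groups apart with NSUN2-KO below, against 16.7% of all tested genes, and 1 fell, against 4.30%. Lipa, the acid lipase that frees cholesterol and fatty acids from esters (chromosome 19, 34492318 to 34527474, minus strand), measured 173, 164 and 165 FPKM in NC against 152, 153 and 151 FPKM in NSUN2-KO. It fell by 0.14 (SE 0.03, adjusted p = 0.0353), and the call ended whichever single library was left out (adjusted p from 0.0709 to 0.121). Ppt1, the palmitoyl-protein thioesterase, narrowly missed the threshold (63.3 ± 0.872 FPKM in NC against 58.4 ± 0.998 FPKM in NSUN2-KO, adjusted p = 0.0572). Ppt1 overlaps Cap1 on the opposite strand, which had 349% of its reads. Asah1, acid ceramidase, and Smpd1, acid sphingomyelinase, had log2 fold changes of -0.09 and -0.14 (adjusted p = 0.176 and 0.177).

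Psap was by far the most abundant of the 36 transcripts and carried most of the summed difference. It encodes prosaposin, the precursor of the saposins, which present sphingolipids to their hydrolases (ENSMUSG00000004207, chromosome 10, 60277627 to 60302597, plus strand). Psap measured 4865, 5117 and 4998 FPKM in NC against 4007, 4146 and 4106 FPKM in NSUN2-KO, on 399157 to 642988 reads per library. It fell by 0.29 (SE 0.03, adjusted p = 0.00278) and stayed called in each of the 6 fits that left out a library, but not with no filter on low values (adjusted p = 0.156).

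The summed FPKM of the 36 genes was 8058 ± 158 in NC and 6910.3 ± 95.5 in NSUN2-KO (SD of 3 libraries), a difference of -14.2%. Without Psap the sums were 3064 ± 36.6 and 2824 ± 26.1 FPKM, a difference of -7.84%. Psap made up 61.7% to 62.4% of the sum in NC libraries and 58.8% to 59.3% in NSUN2-KO libraries. Summed over the 20 glycosidases, sulfatases and lipid hydrolases, the level was 743 ± 3.37 FPKM in NC against 689.7 ± 2.64 FPKM in NSUN2-KO.

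Tpp1, the tripeptidyl peptidase lost in a form of Batten disease (chromosome 7, 105744811 to 105752235, minus strand), measured 27.4, 27.9 and 29.2 FPKM in NC against 23.8, 24.8 and 23.7 FPKM in NSUN2-KO. It fell by 0.22 (SE 0.04, adjusted p = 0.0158). The call ended without NC replicate 3 or NSUN2-KO replicate 1 (adjusted p = 0.0717 for both). Grn, progranulin, a secreted and lysosomal glycoprotein, was at 443, 486 and 460.0 FPKM in NC against a tight 425, 426 and 425 FPKM in NSUN2-KO. Its groups were apart, but it was not called (log2 fold change -0.12, adjusted p = 0.0892).

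The sterol exporters, which pass cholesterol from the soluble NPC2 to the membrane protein NPC1, had nearly equal log2 fold changes. Of the 2 genes, 1 fell, against 4.30% of all tested genes. Npc2 (chromosome 12, 84754562 to 84773152, minus strand) measured 509, 511 and 517 FPKM in NC against 464, 473 and 470.4 FPKM in NSUN2-KO. The groups were far apart for their spread, and Npc2 fell by 0.13 (SE 0.03, adjusted p = 0.0255). It kept its call in 1 of the 6 fits that left out a library, the fit without NSUN2-KO replicate 2 (adjusted p otherwise 0.0501 to 0.126). Npc1 was at 24.7 to 26.8 FPKM in NC against 23.5 to 24.0 FPKM in NSUN2-KO (a log2 fold change of -0.12, adjusted p = 0.119). It overlaps Rmc1 on the opposite strand, with 26.0% as many reads.

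**Figure D2:**
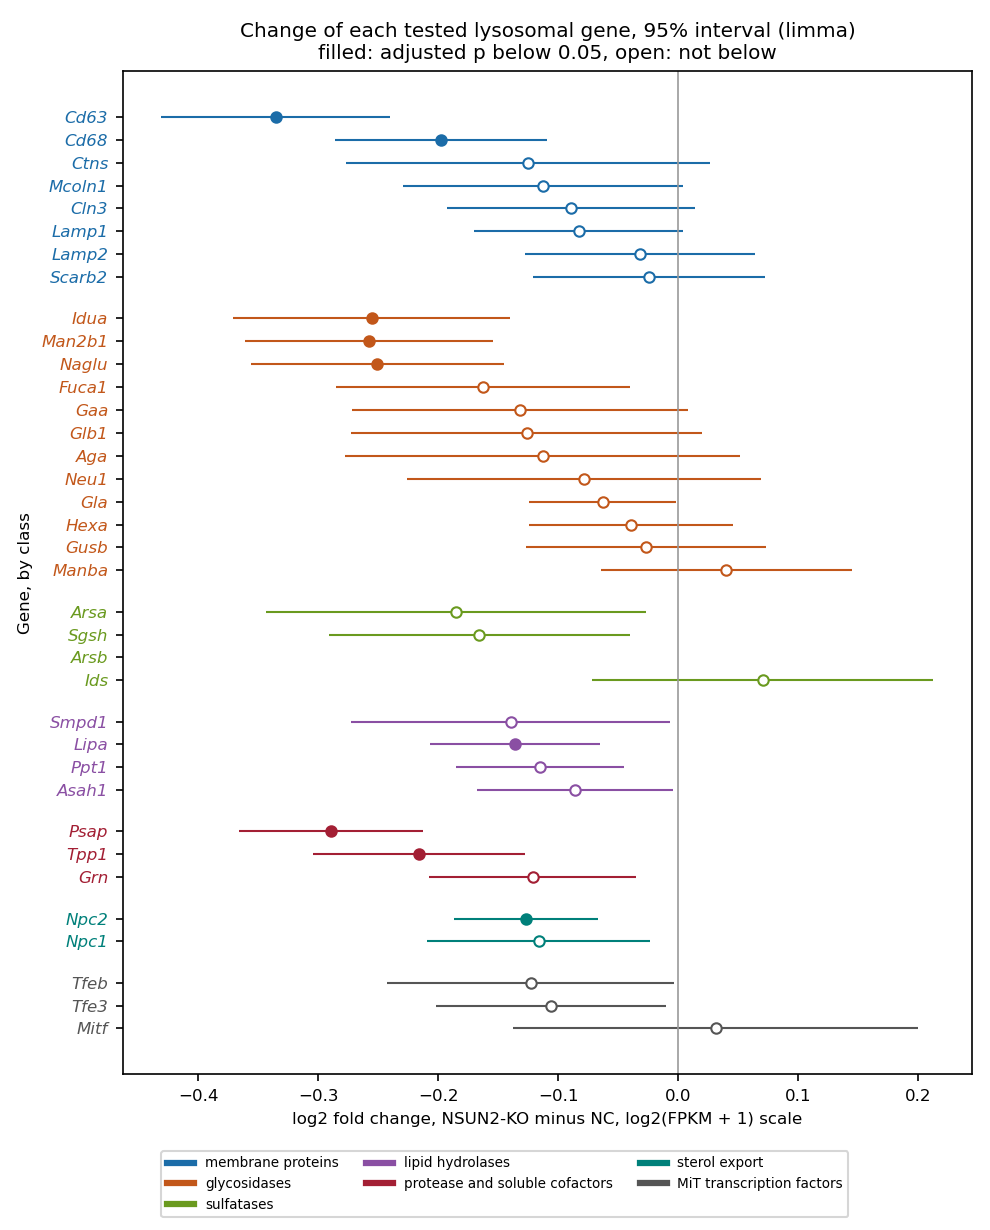
Log2 fold change of each of the 35 tested genes, NSUN2-KO minus NC, on the log2(FPKM + 1) scale (horizontal axis) with its 95% interval from limma, by class (vertical axis). Filled points passed an adjusted p below 0.05, open points did not, and Arsb was not tested. Of the 35 points 32 lie below 0, and 9 are filled.

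None of the 3 MiT transcription factors passed the test in limma, against 8.49% of all tested genes. Tfeb, the factor best known for inducing lysosomal genes (chromosome 17, 47737030 to 47792419, plus strand), measured 3.99, 3.93 and 4.23 FPKM in NC against 3.66, 3.66 and 3.59 FPKM in NSUN2-KO. Its groups were apart, at a log2 fold change of -0.12 (SE 0.05, adjusted p = 0.185). The X-linked Tfe3 (7762560 to 7775202, plus strand) measured 13.6, 14.3 and 14.7 FPKM in NC against 13.3, 13.0 and 13.1 FPKM in NSUN2-KO, also apart (log2 fold change -0.11, SE 0.04, adjusted p = 0.156). Limma voom on recovered reads called 0 of the 3.

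Mitf (chromosome 6, 97807052 to 98021349, plus strand) had the highest FPKM of the family, at 23.5, 19.7 and 20.3 in NC and 22.5, 19.98 and 22.4 in NSUN2-KO. Its groups overlapped, with a 95% interval of -0.14 to 0.20 for the log2 fold change. Tfec, the family member outside the 36 genes, was at 1.58 to 2.13 FPKM in NC against 2.05 to 2.16 FPKM in NSUN2-KO (a log2 fold change of 0.07, adjusted p = 0.656). MiT activity is set largely by phosphorylation and location of the proteins, which mRNA levels do not measure.

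Genes with and without a promoter hexamer had similar medians. Of the 9 genes with CACGTG, 1 fell (Naglu) and 7 had groups apart with NSUN2-KO below, with a median log2 fold change of -0.13 and a range of -0.25 to -0.06. Of the 24 genes searched without it, 23 were tested, all but Arsb. Among those 23, 8 fell and 14 had groups apart with NSUN2-KO below, with a median of -0.12 and a range of -0.34 to 0.07. Lamp1, Gla, Cln3 and Mcoln1, which had 2 or more copies in a promoter, all had groups apart, and 0 of the 4 were called. Groups were apart with NSUN2-KO below in 65.7% of the 35 tested lysosomal genes and in 16.7% of all tested genes. The shares called lower were 25.7% and 4.30%. The difference between genes with and without the hexamer was not tested.

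Other lysosomal genes, a list of 71 in the table that includes Ctsa (cathepsin A) and the transcription factor gene Tfec, were mostly lower too. Of 63 tested, 16 fell and 1 rose, against 4.30% and 4.19% of all tested genes, and the median log2 fold change was -0.10. Leaving out NC replicate 2, NC replicate 3 or NSUN2-KO replicate 1 left 4 that fell, and leaving out NSUN2-KO replicate 2 or 3 left 8. Over all 9433 to 9444 genes tested in those fits, 145, 124, 123, 219 and 269 fell, in the same order. Of the 6 with the highest FPKM, 4 fell and 2 did not pass the test. Gpnmb, a glycoprotein of lysosomes and melanosomes, fell from 644 ± 19.7 to 499.8 ± 3.89 FPKM (SD, n = 3 libraries each, adjusted p = 0.000781). Laptm5, a lysosomal membrane protein of blood cells, fell from 248 ± 10.7 to 205 ± 5.68 FPKM.

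Slc11a1, the NRAMP1 metal transporter of phagosomes, fell from 237 ± 9.32 to 210.2 ± 2.06 FPKM, and Hgsnat, an acetyltransferase of heparan sulfate breakdown, from 218 ± 3.94 to 197 ± 5.57 FPKM. Slc15a3, a peptide and histidine transporter, and Laptm4a overlapped between groups (315 ± 3.76 and 320.2 ± 4.13 FPKM, 238 ± 3.17 and 244 ± 13.5 FPKM). The 1 gene that rose was Smpdl3b, a membrane-bound phosphodiesterase related to sphingomyelinase. It was singled out once its values were known, and went from 37.7 ± 1.20 to 42.9 ± 2.05 FPKM in NSUN2-KO (adjusted p = 0.0464).

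**Figure D3:**
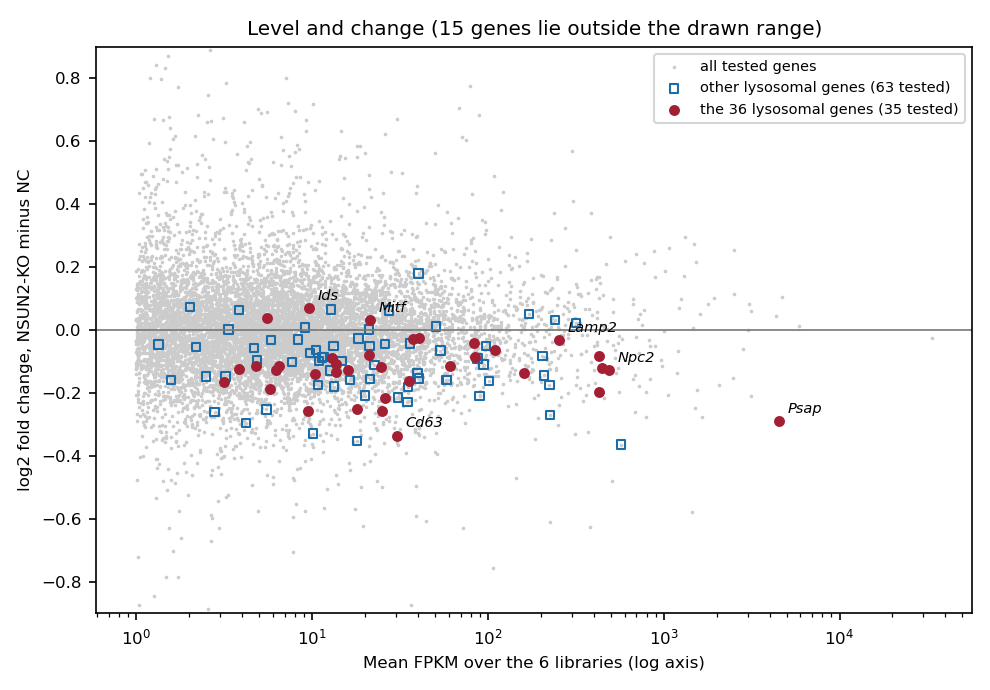
Mean FPKM over the 6 libraries (horizontal log axis) against the log2 fold change, NSUN2-KO minus NC (vertical axis). All 9443 tested genes are in grey, the 63 tested other lysosomal genes are squares, and the 35 tested genes of the 36 are filled points. Most filled points and squares lie just below 0 across the whole range of levels, with Psap at the far right, and 15 genes lie outside the drawn range.

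Base composition moved with the fold changes. Across the 9433 tested genes with a GENCODE vM21 transcript, GC content of the longest transcript and log2 fold change were negatively related (Spearman's rho -0.374). Genes are not independent replicates, and these values come from the same 6 libraries. Over the 35 lysosomal genes rho was -0.584, and their median GC content was 51.6%, against 49.2% for all tested genes. Lamp2 and Ids had the lowest GC content of the 35 (38.7% and 41.4%), and Tfeb the highest (63.2%).

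With the trend over GC content and gene length taken out of each library, 11 of 35 genes fell and 0 rose, against 3.89% and 4.86% of all tested genes, and the median log2 fold change was -0.10. Cd63 then fell by 0.25 and Psap by 0.23 (adjusted p = 0.00496 and 0.00105). Asah1 and Ppt1 were called in addition, and all 9 genes called on the deposited values stayed called. Tfeb was at -0.05 after the removal (adjusted p = 0.707), against -0.12 on the deposited values, and Hexa and Gusb turned to positive values of 0.01 each, and Mitf to -0.02. Grn went from -0.12 to -0.05 (adjusted p = 0.277), Gaa from -0.13 to -0.05, Smpd1 from -0.14 to -0.07 and Neu1 from -0.08 to -0.03. Sgsh went from -0.17 to -0.09, Arsa from -0.19 to -0.11 and Ids from 0.07 to 0.02. Naglu, still called, went from -0.25 to -0.16. Lamp2 and Scarb2 moved the other way, from -0.03 to -0.08 and from -0.02 to -0.04.

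**Figure D4:**
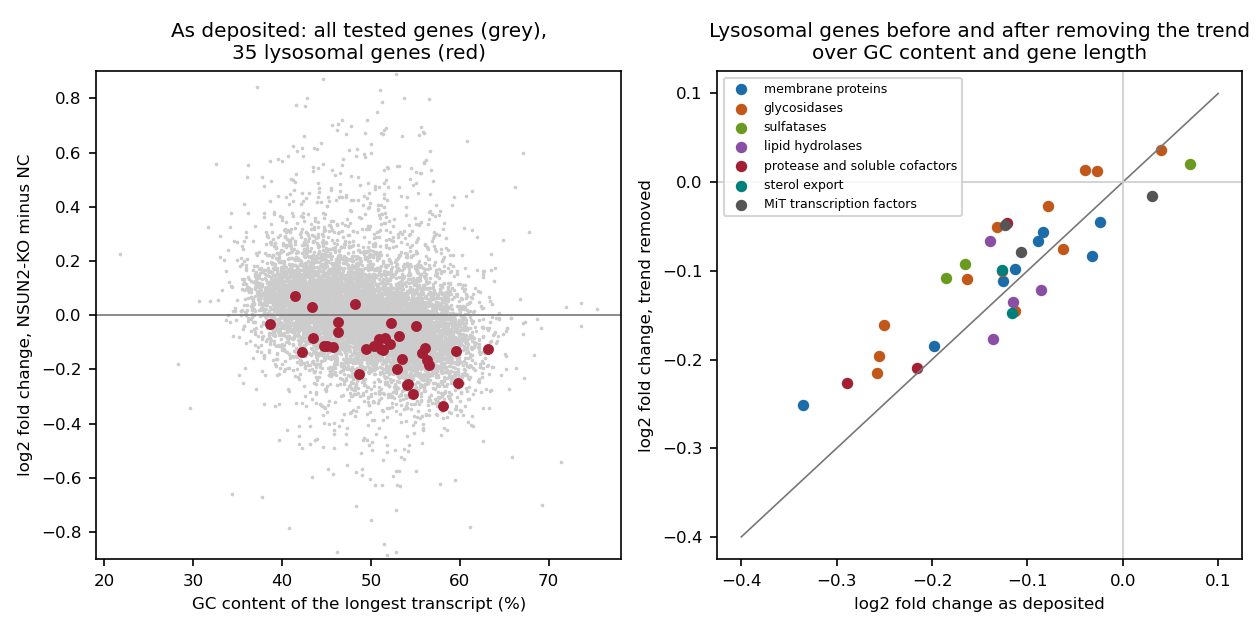
Left, GC content of the longest transcript (horizontal axis, percent) against the log2 fold change, NSUN2-KO minus NC, for all tested genes in grey and the 35 lysosomal genes in red. Right, the log2 fold change of the 35 genes on the deposited values (horizontal axis) and after removal of the trend over GC content and gene length (vertical axis), with the line of equality. Points above the line had a higher value after the removal, and 31 of 35 were then below 0.

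Genes on the X chromosome are given apart because the groups differ in sex-linked genes. The 4 X-linked genes of the 36, Lamp2, Gla, Ids and Tfe3, gave 0 calls, with a median log2 fold change of -0.05. The 32 autosomal genes gave all 9 calls, with a median of -0.13. Over all tested genes, 4.30% were called lower and 4.19% higher, and 4 genes are too few for a contrast with the autosomal ones. With genes on X and Y left out of the fit, the same count of 9 lysosomal genes fell, against 393 of all 9153 tested genes. Values of autosomal genes do not change in that fit, so it cannot show what part sex had in them.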

How the data were processed

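The authors deposited FPKM values, 1 column per library, with gene lengths and GRCm38 positions. Per the submitters' processing notes, the tools were featureCounts 1.5.0-p3, HISAT2 2.0.5, DESeq2 1.20.0, CASAVA 1.8 and fastp. Their roles, the annotation release and the strand setting were not given in the sources used here. Columns were matched to samples by group and replicate number, and 0 columns stayed unassigned. FPKM times gene length gave whole multiples of a step per library for 100% of values above 0 (tolerance 0.01 reads), which recovered reads, which are not independent molecules.

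Genes whose mean reached 1 FPKM entered a limma fit (version 3.58.1, R 4.3.3) of log2(FPKM + 1). The fit used a mean-variance trend and had no covariate. Adding 1 understates changes of low genes. An adjusted p below 0.05 was a call. The fit was also run on simulated reads with known changes. Those changes were larger than those of nearly all of the 36 genes, so that run does not speak to changes of this size. The genes, classes and lists were chosen with earlier results of these data known, so their counts are descriptions. All 36 genes are named, with Nsun2, sex-linked genes, Tfec and the 6 most abundant other lysosomal genes. That other list had 74 symbols, 3 of them not found (older names). Alternatives were other pseudocounts, filters, scalings, limma voom, a replicate block, protein-coding genes, no X or Y genes, removal of a GC content and length trend (loess, span 0.5), and leaving out each library. Python 3.11.15 was used for sequence searches and figures.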

Additional observations from a re-analysis of the deposited data

How the results depend on the processing

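Under the 18 alternatives, 0 of the 36 genes were called higher. Of the 31 to 36 genes tested, between 29 and 33 had a negative log2 fold change and at most 4 a positive one, with medians from -0.13 to -0.08. Over single genes, 573 alternative values kept their side of the threshold, 41 lost the call, 9 gained it and 0 reversed a called direction. With no filter on low values, calls over all tested genes were 118 lower and 147 higher, and 2 of the 36 genes fell (1 membrane protein, 0 glycosidases, 0 lipid hydrolases, 1 protease or cofactor and 0 sterol exporters); of other lysosomal genes 4 fell and 0 rose. With no mean-variance trend, 254 genes were lower over all, with 1 membrane protein, 0 lipid hydrolases, 0 sterol exporters and 7 other lysosomal genes lower and 0 higher. Limma voom on recovered reads gave 666 lower and 706 higher, and 2 lipid hydrolases lower. Lipid hydrolases that fell numbered 2 at a mean of at least 5 FPKM, 2 with protein-coding genes only, 3 with the GC content and length trend removed and 0 with TPM, where 0 other lysosomal genes were higher. With the replicate number as a block, 161 genes were lower and 190 higher, and 3 of the 36 fell (0 glycosidases, 0 lipid hydrolases, 1 protease or cofactor, 0 sterol exporters), with 4 other lysosomal genes lower and 0 higher. Same-numbered libraries deviated together with correlations of -0.00952, -0.0298 and 0.00343, so the numbers were not taken as pairs. Leaving out 1 library gave 123 to 283 lower and 153 to 313 higher over all, 3 to 8 of the 36 genes lower, 1 to 2 membrane proteins, 0 to 4 glycosidases, 0 to 0 lipid hydrolases, 1 to 2 proteases or cofactors, 0 to 1 sterol exporters, and 4 to 12 other lysosomal genes lower with 0 to 1 higher. The cause of these shifts was not tested. At 148 to 207 reads per library, Arsb was the least deeply covered of the 36 genes.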
